A study of Mus musculus with 6 samples.

Results

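A set of 10 genes that cells switch on early after a stimulus, Egr1, Egr2, Egr3, Klf2, Klf4, Klf6, Klf10, Ier2, Ier5 and Nr4a1, was followed in macrophages with and without Cd74, which encodes a chaperone of MHC class II molecules that also binds the cytokine MIF. They were taken by gene symbol from the deposited expression table of 17217 rows, and all 10 had a row. Cd74 knockout cells (CD74-/- in the protocol) and Control cells (CD74+/+) were both bone marrow-derived macrophages. Per the labels' protocols, marrow came from the femurs of mice aged 8 weeks and was cultured in M-CSF at 30 ng/mL, which drives macrophage growth, and both genotypes then received 100 ng/mL lipopolysaccharide (LPS), a bacterial outer-membrane component that activates macrophages, for 24 h. Each genotype had 3 libraries and no untreated cells were analysed here, so the comparison is between genotypes after LPS. All libraries were taken at 24 h, so the levels are late ones and the first response to LPS was not measured. The protocol text names wild-type mice for every library, the number of mice is not stated, and no promoter or Cre driver is given for the knockout. The labels do not tie replicates to different animals or dishes, so the p-values measure only the spread between these libraries, which may be technical. All knockout libraries carry the label batch 2 and all Control libraries batch 1, and the effects of genotype and batch cannot be told apart in any result.

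Immediate early genes are transcribed within minutes of a stimulus without new protein synthesis. Kinases of the ERK family act on serum response factor (SRF) and its ternary complex partners, which bind CArG boxes in promoters, and on CREB and MEF2 proteins. The transcripts are usually short-lived, and many of their products are transcription factors: the EGR zinc-finger activators, the Krüppel-like factors (KLF) that bind GC-rich DNA, and the NR4A orphan nuclear receptors. In macrophages EGR1 is induced by LPS, KLF2 and KLF4 are known to restrain inflammatory transcription, KLF6 to favour it, and NR4A1 to limit it.

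The promoter windows of 4 of the genes are shown because they hold matches to the motifs searched: a CArG box in Egr2, a MEF2 site in Klf2, and only EGR sites and half-sites of the cAMP response element in Klf4 and Nr4a1. Each runs from 250 bases before to 50 bases after an annotated start, 5′ to 3′ on the gene's own strand, and was taken from RefSeq (GRCm38.p6, an earlier build than the GRCm39 that the submitters' processing notes name). Capitals mark motif matches on either strand. Windows were found for 6 of the 10 genes: Egr2 (5 windows), Klf2, Klf4, Klf6, Ier5 and Nr4a1. Egr1, Egr3, Klf10 and Ier2 had none.
Klf4 promoter, chr4:55532426-55532725, minus strand: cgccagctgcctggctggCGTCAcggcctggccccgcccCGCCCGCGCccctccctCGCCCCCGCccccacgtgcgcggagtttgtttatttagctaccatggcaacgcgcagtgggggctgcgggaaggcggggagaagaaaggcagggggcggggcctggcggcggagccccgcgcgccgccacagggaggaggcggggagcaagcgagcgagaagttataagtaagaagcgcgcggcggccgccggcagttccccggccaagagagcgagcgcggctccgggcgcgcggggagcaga
Klf2 promoter, chr8:72318812-72319111, plus strand: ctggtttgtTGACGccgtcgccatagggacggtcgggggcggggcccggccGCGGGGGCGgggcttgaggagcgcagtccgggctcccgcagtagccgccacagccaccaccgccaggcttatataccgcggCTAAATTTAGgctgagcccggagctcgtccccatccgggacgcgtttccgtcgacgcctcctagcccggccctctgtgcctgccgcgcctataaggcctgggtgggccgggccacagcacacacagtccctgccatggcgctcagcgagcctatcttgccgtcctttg
Egr2 promoter, chr10:67537619-67537918, plus strand: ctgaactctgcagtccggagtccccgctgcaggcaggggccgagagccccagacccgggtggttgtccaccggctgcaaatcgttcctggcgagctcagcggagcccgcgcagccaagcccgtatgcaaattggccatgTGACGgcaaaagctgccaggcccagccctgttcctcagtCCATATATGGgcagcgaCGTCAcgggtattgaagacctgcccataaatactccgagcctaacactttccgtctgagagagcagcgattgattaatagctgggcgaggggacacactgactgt
Nr4a1 promoter, chr15:101266596-101266895, plus strand: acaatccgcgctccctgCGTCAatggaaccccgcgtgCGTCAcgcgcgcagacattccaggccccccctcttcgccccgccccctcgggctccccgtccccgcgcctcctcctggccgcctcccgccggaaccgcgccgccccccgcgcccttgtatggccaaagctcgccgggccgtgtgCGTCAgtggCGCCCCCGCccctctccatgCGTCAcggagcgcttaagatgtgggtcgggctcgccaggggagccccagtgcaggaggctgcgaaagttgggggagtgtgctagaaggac

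The Egr2 window shown, chosen from its 5 for its matches, holds a CArG box, CCATATATGG, whose first base lies 72 bases before the start. A CArG box was present in 4 of the 5 Egr2 windows, but 3 of these overlap and share this box, so the 4 matches are 2 distinct boxes. Of all 32851 windows of this length, 1.63% hold one. The Klf2 window holds a MEF2 site, CTAAATTTAG, that begins 118 bases before the start, a site found in 3.19% of all windows. The EGR site GCGNGGGCG, the letters that EGR proteins bind, occurs at 2 places in the Klf4 window and at 1 place in each of the Klf2 and Nr4a1 windows, against 5.55% of all windows with at least 1. The half-site TGACG of the cAMP response element occurs at 4 places in the Nr4a1 window, 2 in that of Egr2 and 1 in each of those of Klf2 and Klf4, and in 20.8% of all windows. No window of a listed gene held the full element TGACGTCA, the AP-1 site TGANTCA or the TATA box letters TATAAA, which 1.79%, 7.81% and 13.6% of all windows hold. Only the exact letters TATAAA were searched, so the absence of a TATA box is not shown. Variants, such as TATATAAG in the Ier5 window, were not counted. The windows of Klf6 and Ier5 matched none of the motifs searched. Matches of the half-site can lie within the full element, and none of these matches is shown to be a bound site. The windows of the 6 genes were GC-rich, at 56.0% to 74.3% G and C against a median of 52.7% over all windows.

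The 10 genes also shared a compact structure. In GENCODE M21, used here for gene structure and lengths alone, 8 of the 10 had 1 to 4 exons in their principal transcript, against 19.8% of 10540 tested protein-coding genes, and all 10 spanned less than the median of 21242 bp. Ier2 and Ier5 had a single exon, Egr1, Egr2 and Egr3 had 2, and Nr4a1 had 8. The pentamer ATTTA, the core of AU-rich elements that destabilise transcripts, lay in the 3′ untranslated region of 9 of the 10, with Ier2 the exception, against 67.2% of tested genes with such a region. That comparison was not adjusted for the length of the region, 543 to 3111 bp in the 10 genes against a median of 993 bp. Nr4a1 had the densest set, with 3 in 543 bp, or 5.52 per kb against a median of 1.29 per kb. Ier2, Ier5 (0.93 per kb) and Klf4 (1.02 per kb) lay below that median. The nonamer TTATTTATT, a stricter form, was in 0 of the 10 and in 7.47% of tested genes. No exon of the 10 genes overlapped an exon of another annotated gene.

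The values are TPM, a length-scaled relative abundance of transcripts with a fixed sum per library, so levels of different genes can be set side by side. The reads behind them were recovered by way of gene lengths, at 51726648 to 59236605 reads in the knockout libraries and 36445464 to 52517061 in the Control libraries. Cd74 stood at 65.3, 64.6 and 63.1 TPM in knockout replicates 1 to 3, against 632, 593 and 594 TPM in Control replicates 1 to 3, in the direction of the labels. Its knockout values are not whole reads, unlike those of nearly all other rows, and its log2 ratio departed by 2.00 from the rows beside it in a table that runs in order of that ratio. The 10 early genes had no such fault: all their values were whole reads, Ier2 at a length of 1524 bp in place of the annotated 1522 bp, and no gene departed from the rows beside it by more than 0.006.

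Markers of macrophages and of other cells also differed between the genotypes, in both directions, and their part in the results below was not tested. Of all tested rows 18.5% were called higher and 10.1% lower, the shares to set beside each count of markers. Of 15 macrophage markers 10 had a row, whereas Mertk, Maf, C1qa, C1qb and C1qc had none. Of the 9 tested, 4 were called higher, among them Lyz2 at 8660 ± 778 TPM in knockout and 5370 ± 355 TPM in Control cells and Csf1r, the M-CSF receptor gene, at 246 ± 38.9 TPM in knockout and 144 ± 9.77 TPM in Control cells (SD, n = 3 each). Adgre1, which encodes F4/80, was called lower, at 332 ± 34 TPM in knockout and 489 ± 4.44 TPM in Control cells, and Cd68 was not called, at 1900 ± 21.2 TPM in knockout and 1810 ± 68 TPM in Control cells. Of the macrophage markers called higher, Itgam lost its call in 3 of 6 cases with single libraries left out, and Spi1 in 1. The macrophage list summed to 15000 to 16300 TPM in knockout libraries and 11600 to 12000 TPM in Control libraries. Of 10 neutrophil markers 4 had a row, and Ly6g, Mpo and Elane had none. S100a8 was called higher, at 19 ± 3.34 TPM in knockout and 5.01 ± 0.762 TPM in Control cells, while Csf3r and Lcn2 were called lower, and the list, nearly all Lcn2, summed to 289 to 445 TPM in knockout libraries and 919 to 1030 TPM in Control libraries. All 5 tested of 6 osteoclast markers were called. Acp5, Ctsk, Dcstamp and Ocstamp were higher, Ocstamp at 13.7 ± 0.642 TPM in knockout and 4.53 ± 0.37 TPM in Control cells. Nfatc1 was lower, at 34.7 ± 3.78 TPM in knockout and 104 ± 10 TPM in Control cells. Like Cd74, Nfatc1 is among the 28 rows whose values are not all whole reads, so its level carries that fault. Leaving out single libraries ended the call of Ctsk in 3 of 6 cases and that of Acp5 in 2. The Ctsk call also ended after median-of-ratios or upper-quartile scaling and with no filter on low values. The osteoclast list, Nfatc1 included, summed to 274 to 321 TPM in knockout libraries and 270 to 297 TPM in Control libraries. Hdc, the 1 of 5 mast cell and basophil markers with a row, was called lower, at 7.1 ± 2.43 TPM in knockout and 25.3 ± 5.07 TPM in Control cells. Ighm of the B cell list was called higher and Lck of the T and NK cell list lower, at log2 fold changes of 0.41 and -0.25, while Ms4a1 of B cells and Cd3d, Cd3e and Cd3g of T cells had no row. The call of Lck ended in 5 of 6 cases with single libraries left out, and that of Ighm in 1. No dendritic cell, erythroid, stromal or endothelial marker that was tested was called: 2 were tested among the dendritic and 1 among the stromal markers, and 0 among the erythroid and endothelial. The 3 endothelial markers with a row, from a cell type that also uses Klf2 and Klf4, summed to 0.647 to 0.883 TPM in knockout libraries and 0.349 to 0.640 TPM in Control libraries. In bulk RNA fewer cells of a type and less RNA per cell cannot be told apart. Lcn2 and Hdc alone do not show that neutrophils, mast cells or basophils were present. Which cells made these transcripts was not tested.

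Loss of Cd74 was accompanied by lower levels of Egr1, Klf4 and Ier5 and a higher level of Klf10, while the other 6 genes did not pass the test. Levels were tested with limma on log2(TPM + 1) over the 13034 rows that averaged 1 TPM or more, with Benjamini-Hochberg adjustment over all of them and a threshold of 0.05. All 10 genes passed the filter on low values. Of the 10, 3 were called lower, where 10.1% of all tested rows were, and 1 was called higher, where 18.5% were. In either direction 4 were called, beside 28.5% of all tested rows. In 6 genes, Egr1, Egr2, Klf2, Klf4, Klf6 and Ier5, every knockout library lay below every Control library, which held for 19.8% of tested rows. In Klf10 every knockout library lay above, as in 30.2% of tested rows. The median log2 fold change of the 10 was -0.26, and that of all tested rows was 0.04. The direction of calls over the table depends on scaling: 2406 rows were called higher and 1313 lower as deposited, and 1814 and 1756 after median-of-ratios scaling.

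**Figure D1:**
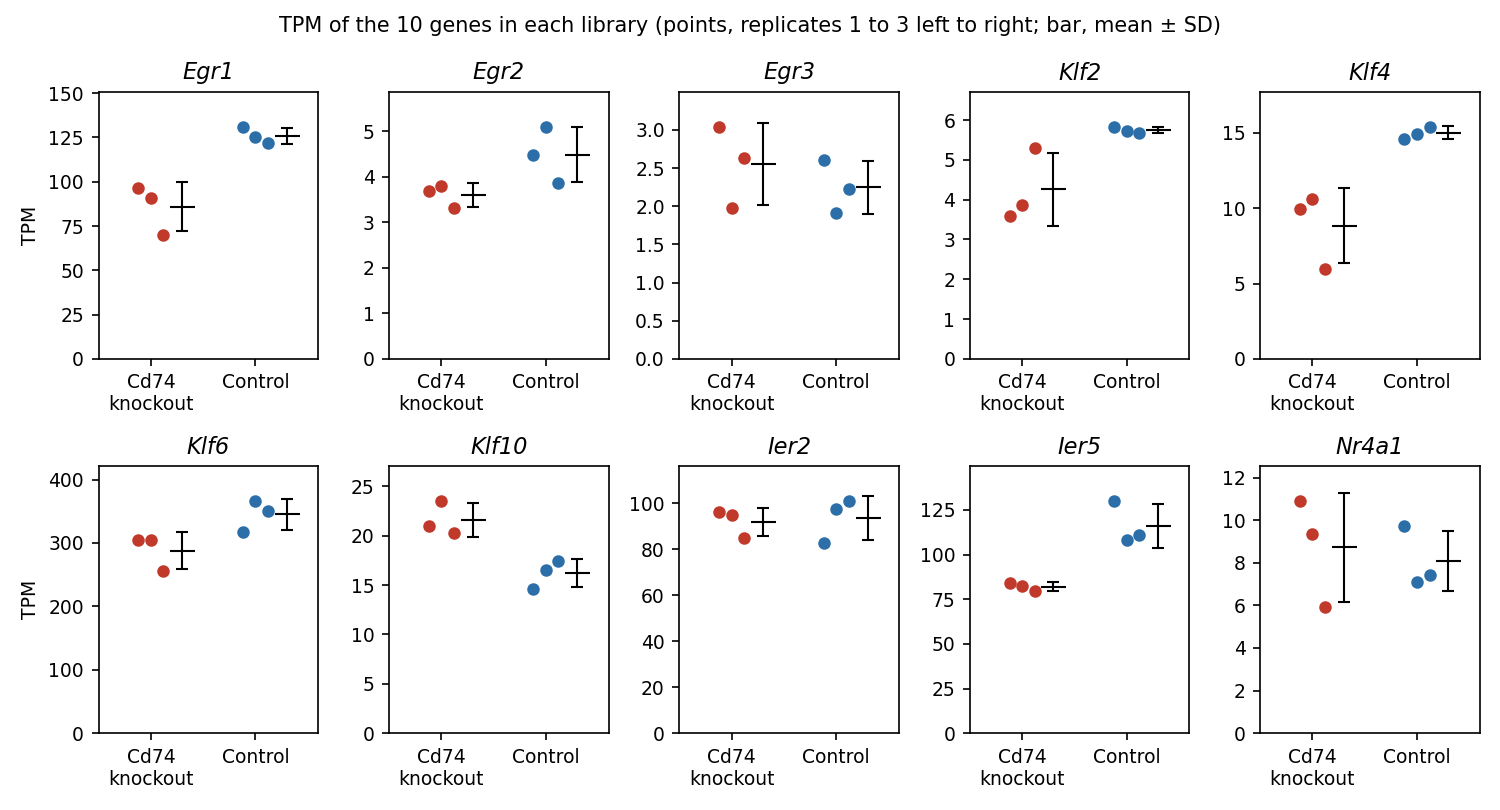
TPM of each of the 10 genes on a linear axis from 0, with 3 Cd74 knockout libraries (red) left of 3 Control libraries (blue), points in replicate order and black bars for the mean ± SD. Egr1 stood at 70.2 to 96.5 TPM in knockout libraries and 122 to 131 TPM in Control libraries, while the groups of Egr3, Ier2 and Nr4a1 overlap.

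Egr1, the zinc-finger factor that opens many early responses, had 96.5, 91.0 and 70.2 TPM in knockout replicates 1 to 3, against 131, 125 and 122 TPM in Control replicates 1 to 3. Every knockout library was lower than every Control library, and knockout replicate 3 was the lowest of all. The means were 85.9 ± 13.9 TPM in knockout and 126 ± 4.58 TPM in Control cells (SD, n = 3 each), with a log2 fold change of -0.56 (SE 0.11, limma adjusted p = 0.0126). The gene rested on 5296 to 8998 reads a library. Its call was kept in each of 13 alternative settings, with adjusted p between 0.00316 and 0.0488.

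Egr2, a paralogue that in macrophages is linked to alternative activation, was far less abundant. It had 3.70, 3.79 and 3.31 TPM in knockout replicates 1 to 3, against 4.49, 5.10 and 3.87 TPM in Control replicates 1 to 3. The groups did not overlap, but the lowest Control library lay close to the knockout libraries, and Egr2 was not called (log2 fold change -0.25, 95% interval -0.54 to 0.04, limma adjusted p = 0.163). With 173 to 278 reads a library, counting error alone came to 6.00% to 7.60% of each value.

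Egr3, which overlaps with EGR2 in lymphocyte tolerance, was the least abundant of the 10. Its level was 3.04, 1.98 and 2.63 TPM in knockout replicates 1 to 3 and 2.60, 1.91 and 2.23 TPM in Control replicates 1 to 3. The groups overlap, and the interval of the log2 fold change, -0.26 to 0.50 around 0.12, leaves room for a difference either way (limma adjusted p = 0.601). The Egr1 to Egr3 ratio of TPM averaged 34.8 ± 9.98 in knockout and 56.8 ± 7.83 in Control libraries (SD, n = 3 each), without overlap. The Egr1 to Egr2 ratio, at 23.8 ± 2.45 in knockout and 28.4 ± 3.55 in Control libraries, did overlap. A comparison of 3 libraries with 3 cannot give an exact two-sided p below 0.10, so these ratios are given as descriptions.

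Among the Krüppel-like factors, Klf4 and Klf10 went in opposite directions. Klf4, a factor of monocyte differentiation and of alternative macrophage activation, had 9.92, 10.6 and 5.99 TPM in knockout replicates 1 to 3, against 14.6, 14.9 and 15.4 TPM in Control replicates 1 to 3. The groups are well apart, and knockout replicate 3 is again the lowest. The means of 8.84 ± 2.5 TPM in knockout and 15.0 ± 0.423 TPM in Control cells (SD, n = 3 each) gave a log2 fold change of -0.73 (SE 0.18, limma adjusted p = 0.0242), the largest in size of the 10. The call ended when Control replicate 1, 2 or 3 was left out, at adjusted p of 0.0694, 0.0653 and 0.0756, with log2 fold changes of -0.75, -0.74 and -0.71. Without knockout replicate 3 the log2 fold change was -0.50, with adjusted p = 0.00424.

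Klf10, the TGF-beta-inducible early gene and a transcriptional repressor, was the only 1 of the 10 called higher. It had 21.0, 23.5 and 20.3 TPM in knockout replicates 1 to 3, against 14.6, 16.5 and 17.4 TPM in Control replicates 1 to 3. Here too the groups are separate, and knockout replicate 3 did not stand apart from replicate 1. The means were 21.6 ± 1.73 TPM in knockout and 16.2 ± 1.44 TPM in Control cells (SD, n = 3 each), with a log2 fold change of 0.40 (SE 0.09, limma adjusted p = 0.0154). The call was kept in 13 of 13 alternative settings, with adjusted p of 0.0110 to 0.0491. Klf10 and Klf4 were close to each other in Control libraries, with a Klf10 to Klf4 ratio of TPM of 2.57 ± 0.704 in knockout and 1.08 ± 0.0702 in Control libraries (SD, n = 3 each).

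Klf6, an activator of inflammatory genes in macrophages, was the most abundant of the 10. It had 305, 304 and 255 TPM in knockout replicates 1 to 3, against 318, 366 and 351 TPM in Control replicates 1 to 3. The highest knockout library lay just below the lowest Control library. The log2 fold change of -0.26 (SE 0.09, limma adjusted p = 0.0583) missed the threshold as deposited. It passed after median-of-ratios scaling, after upper-quartile scaling and in limma-voom on recovered reads (log2 fold changes -0.31, -0.32 and -0.29, adjusted p = 0.0311, 0.0384 and 0.0169), so its call depends on these choices.

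Klf2, which keeps myeloid cells and endothelium quiescent, had 3.60, 3.86 and 5.31 TPM in knockout replicates 1 to 3, against 5.83, 5.73 and 5.67 TPM in Control replicates 1 to 3. Knockout replicates 1 and 2 were clearly lower, and replicate 3 lay just under the Control libraries. Klf2 was not called (log2 fold change -0.37, SE 0.14, limma adjusted p = 0.0792), and was called without knockout replicate 3 (-0.51, adjusted p = 0.0140). The Control values differed by 1.38% of their mean (SD), less than the counting error of 7.67% to 9.45% that 112 to 170 reads a library allow.

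**Figure D2:**
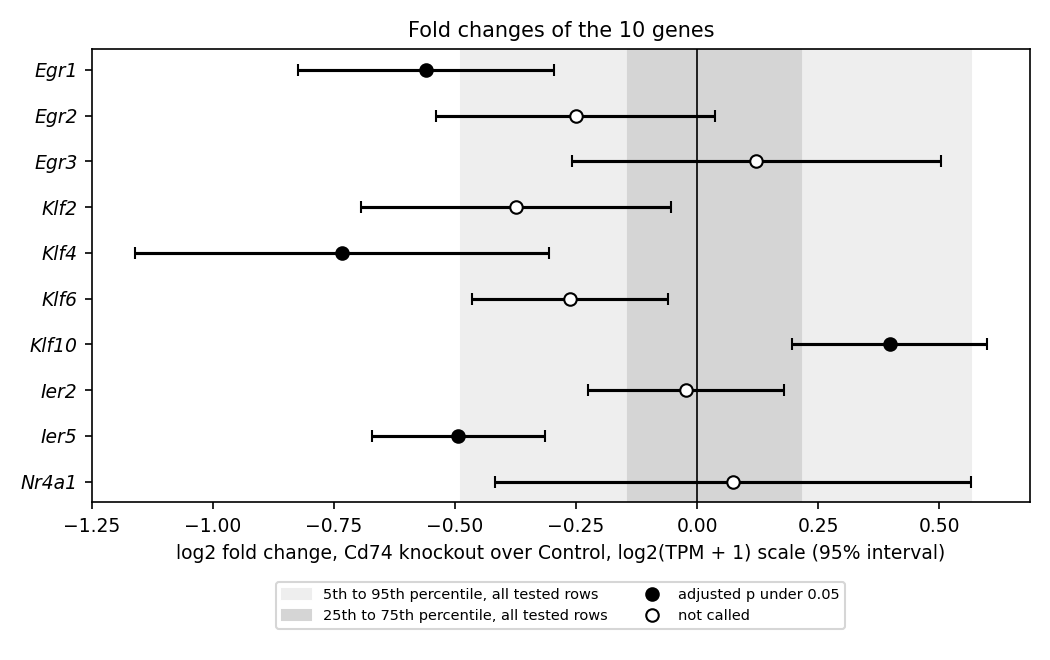
Log2 fold change of each gene, Cd74 knockout over Control, on the log2(TPM + 1) scale with its 95% interval, filled where the limma adjusted p was under 0.05, over grey bands for all tested rows. Egr1 (-0.56), Klf4 (-0.73) and Ier5 (-0.49) lie at or beyond the 5th percentile of all tested rows (-0.49), and Klf10 (0.40) lies inside the 95th (0.57).

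Ier5, an early-response gene whose product regulates heat shock factor 1, had 84.1, 82.7 and 79.6 TPM in knockout replicates 1 to 3, against 130, 108 and 111 TPM in Control replicates 1 to 3. The knockout libraries were tightly grouped, and all lay below every Control library. The means of 82.1 ± 2.29 TPM in knockout and 116 ± 12.2 TPM in Control cells (SD, n = 3 each) gave a log2 fold change of -0.49 (SE 0.08, limma adjusted p = 0.00589), the smallest adjusted p of the 10. The call was kept in 13 of 13 alternative settings, with adjusted p of 0.00108 to 0.0238.

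Ier2, a small nuclear early-response protein gene, had 96.1, 95 and 85.1 TPM in knockout replicates 1 to 3, against 82.8, 97.5 and 101 TPM in Control replicates 1 to 3. The groups overlap fully, and the 95% interval of the log2 fold change ran from -0.23 to 0.18 around -0.02 (limma adjusted p = 0.865). Every Ier2 value lay above every Ier5 value in knockout cells, where Ier2 averaged 92.1 ± 6.09 TPM, and below every Ier5 value in Control cells, where Ier2 averaged 93.7 ± 9.59 TPM (SD, n = 3 each).

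Nr4a1, the orphan receptor Nur77, had 10.9, 9.37 and 5.91 TPM in knockout replicates 1 to 3, against 9.71, 7.12 and 7.41 TPM in Control replicates 1 to 3. The knockout libraries held both the highest and the lowest value. The log2 fold change was 0.07 with a 95% interval of -0.42 to 0.57, the widest of the 10 (limma adjusted p = 0.816).

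**Figure D3:**
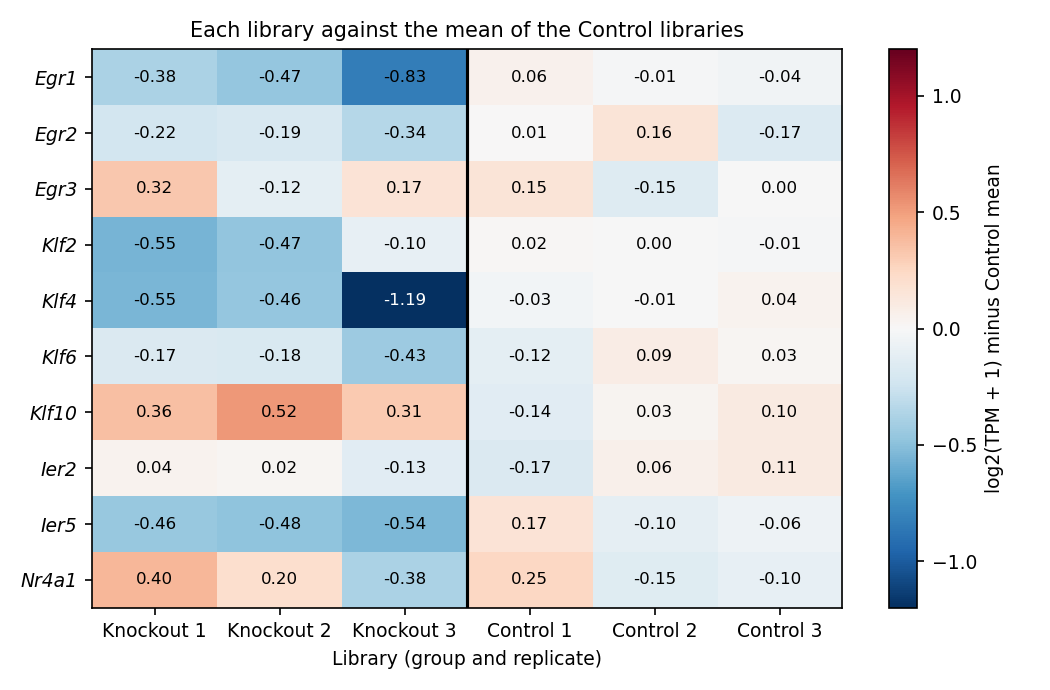
Log2(TPM + 1) of each gene in each library minus the mean of the Control libraries, with knockout replicates left of Control replicates, blue for lower and red for higher. Knockout replicate 3 is the lowest for Klf4 (-1.19) and Egr1 (-0.83), and is the library nearest to Control for Klf2 (-0.10).

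Knockout replicate 3 often differed from the other knockout libraries in this group of genes, and not only in it. It was the lowest knockout library for 8 of the 10, where it was the lowest for 44.1% of all tested rows. Klf2 and Egr3 were the exceptions. Outside the 10 it was also the lowest knockout library for early genes such as Atf3, Csrnp1, Plk2 and Myc. For others, such as Jun, Fosl2 and Arc, it was the highest. On the log2(TPM + 1) scale knockout replicate 3 lay below the mean of the other knockout libraries by 0.69 for Klf4, 0.68 for Nr4a1 and 0.41 for Egr1, and above it by 0.42 for Klf2. The gap was small for Ier5 (-0.07), Klf10 (-0.13) and Egr2 (-0.14). This library had 12854 rows at 1 TPM or more, beside 13030 and 13102 in the other knockout libraries and 12971 to 12995 in the Control libraries. The part of this library in the results was not tested beyond leaving it out, which kept the calls of Egr1 (log2 fold change -0.42), Klf4, Klf10 and Ier5 and added that of Klf2.

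The order of the levels was largely the same in both genotypes. In knockout cells it ran Klf6, Ier2, Egr1, Ier5, Klf10, Klf4, Nr4a1, Klf2, Egr2, Egr3, and in Control cells Klf6, Egr1, Ier5, Ier2, Klf10, Klf4, Nr4a1, Klf2, Egr2, Egr3. In knockout cells Ier2 did not differ from Egr1 beyond the spread of the libraries, nor did Egr1 from Ier5, Klf4 from Nr4a1, or Klf2 from Egr2. In Control cells this held for Egr1 and Ier5 and for Klf10 and Klf4. Among tested rows Klf6 was at percentile 96.2 by its knockout mean and 97 by its Control mean, and Egr3 at percentile 13.2 by its knockout mean and 11.7 by its Control mean.

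Beyond the 10, related genes were read from the same fit, in lists of the families, of other immediate early genes and of the kinases and factors that act on them. Of 73 such genes 66 had a row and 61 were tested, of which 10 were called higher and 18 lower. Of all tested rows 18.5% were called higher and 10.1% lower, the shares to set beside the count of every list below. In the list of other EGR, NR4A and IER genes and EGR corepressors, 3 of 4 tested genes were called higher and 0 lower. Of the families themselves only Nr4a2 and Ier3 were tested. The genes called were Nr4a2 (Nurr1), at 4.35 ± 0.945 TPM in knockout and 2.67 ± 0.0713 TPM in Control cells (SD, n = 3 each), and both EGR corepressor genes, Nab1 and Nab2, with log2 fold changes of 0.33 and 0.23. Leaving out single libraries ended the call of Nr4a2 in 5 of 6 cases and that of Nab2 in 4 of 6, and that of Nab1 in 0 of 6. Ier3, an anti-apoptotic early gene, was not called at 806 ± 85.5 TPM in knockout and 828 ± 39.1 TPM in Control cells. Egr4 had no row.

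Of 7 tested KLF genes outside the 10, 1 was called higher and 2 lower, beside 18.5% and 10.1% of all tested rows. Klf16 rose to 30.2 ± 2.78 TPM in knockout cells, against 23.0 ± 0.736 TPM in Control cells (SD, n = 3 each), a log2 fold change of 0.38 (limma adjusted p = 0.0108). Klf9, a glucocorticoid-responsive factor, fell to 22.8 ± 3.06 TPM in knockout cells, against 30.3 ± 1.27 TPM in Control cells (log2 fold change -0.40, limma adjusted p = 0.0224). Klf13 fell by 0.16 on the log2 scale and lost its call whichever library was left out, and Klf9 lost it without Control replicate 1, 2 or 3. Klf5, Klf14, Klf15 and Klf17 had no row.

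Of 24 other immediate early genes tested, 3 were called higher and 11 lower, beside 18.5% and 10.1% of all tested rows. Their median log2 fold change was -0.26. The falls were led by Atf3, a stress-induced repressor of inflammatory genes (log2 fold change -1.03, limma adjusted p = 0.00509), Csrnp1 (-0.86, adjusted p = 0.0138) and the antiproliferative gene Btg1 (-0.79, adjusted p = 0.00282). The rises were Fosl2 and Fos, which encode AP-1 subunits (1.04 and 0.79, limma adjusted p = 0.000441 for both), and Arc (0.69, adjusted p = 0.0239), which lost its call with 4 of the 6 libraries left out in turn. The AP-1 genes Jund and Junb were called lower (-0.64 and -0.44, limma adjusted p = 0.00703 and 0.0173). Jun and Fosl1 were not called. Fos stood at 48.6, 50.8 and 48.8 TPM in knockout replicates 1 to 3, against 29.1, 28.5 and 27 TPM in Control replicates 1 to 3. At 24 h of LPS early genes thus went both ways, with Fos and Egr1 in opposite directions. Whether their induction differed was not measured.

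**Figure D4:**
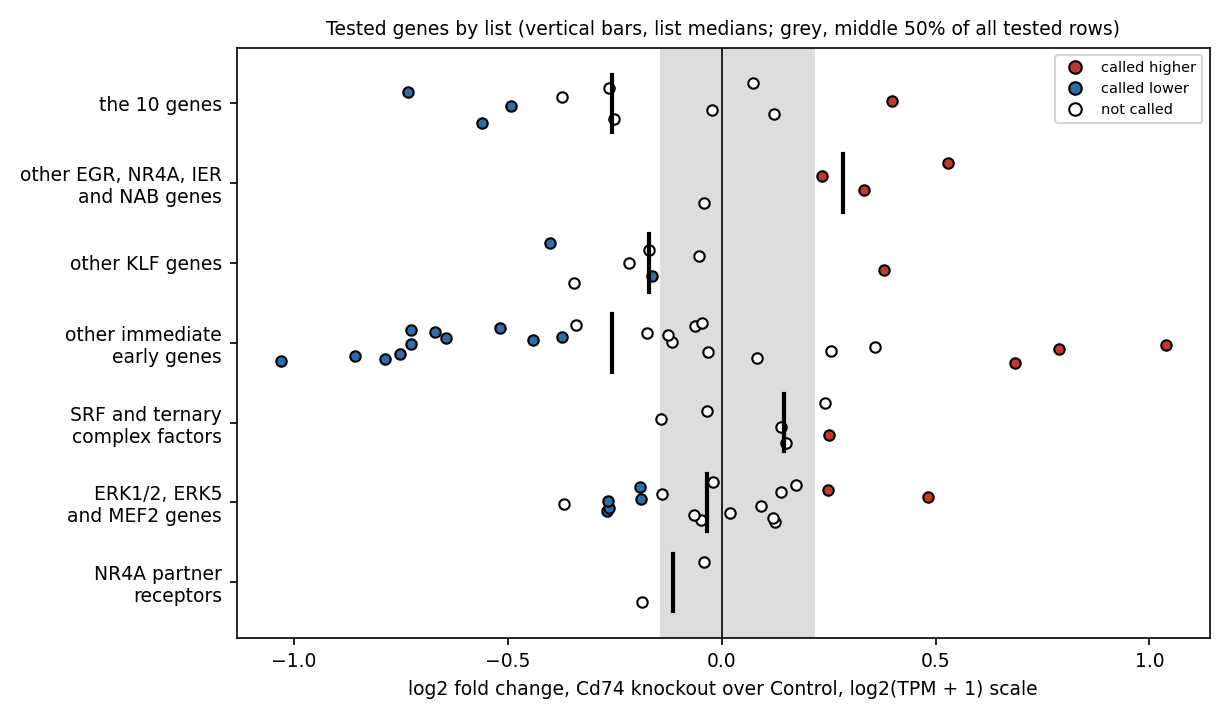
Log2 fold change, Cd74 knockout over Control, of each tested gene by list, red where called higher and blue where called lower, with list medians as vertical bars and the middle 50% of all tested rows in grey. The medians are -0.26 for the 10 genes and for the other immediate early genes, and 0.28 for the other EGR, NR4A, IER and NAB genes.

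Among the factors that act on such promoters, 1 of 6 SRF and ternary complex genes rose, Elk3 (log2 fold change 0.25, limma adjusted p = 0.0211), and 0 fell. Elk3 lost its call with 5 of the 6 libraries left out in turn. Srf itself was not called, at 50.9 ± 7.87 TPM in knockout and 42.6 ± 1.6 TPM in Control cells (SD, n = 3 each, limma adjusted p = 0.119). Of 18 genes of the ERK1/2 and ERK5 pathways and MEF2 factors, 2 were called higher and 5 lower, beside 18.5% and 10.1% of all tested rows. Mapk3, which encodes ERK1, missed the threshold as deposited (log2 fold change -0.37, limma adjusted p = 0.0565). It was called lower after median-of-ratios or upper-quartile scaling, in limma-voom and without knockout replicate 1 or 3, so its call depends on these choices. In the ERK5 branch, known from endothelial cells to induce Klf2 and Klf4 through MEF2, the upstream kinase genes Map3k2 and Map3k3 and Mapk7, which encodes ERK5, had log2 fold changes of -0.27, -0.26 and -0.26 (limma adjusted p = 0.0387, 0.0204 and 0.0268), each lost with 3 or 4 of the 6 libraries left out. Map2k5, the kinase between them, was not called, at 30.7 ± 1.10 TPM in knockout and 30.3 ± 1.02 TPM in Control cells. Mef2c rose by 0.48 on the log2 scale (limma adjusted p = 0.00289) to 24.2 ± 0.704 TPM in knockout cells, against 17.0 ± 0.566 TPM in Control cells, and kept its call with each library left out. Of the other MEF2 genes, Mef2a was called lower, at a log2 fold change of -0.19 (limma adjusted p = 0.0282), a call lost with 5 of the 6 libraries left out in turn, and Mef2d was not called, at -0.14. Rps6ka1, the kinase gene RSK1, rose by 0.25 and lost its call with 4 of the 6 libraries left out. Rps6ka3, of the same kinase family, was called lower (-0.19, limma adjusted p = 0.0424), a call lost with 5 of the 6 libraries left out. Neither RXR gene that pairs with NR4A receptors, Rxra or Rxrb, was called.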

How the data were processed

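Total RNA was sequenced on an Illumina instrument, per the labels. The authors deposited 1 table of TPM, a unit read from the values (columns sum to just under 1e6 and steps follow gene length) because the header names none. GRCm39 and DESeq2 are named in the submitters' processing notes without a role, and aligner, counter and annotation are not given in the sources used here. No column was left unmapped.

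Reads were recovered as TPM times a GENCODE M21 union exon length divided by the value of 1 read. Whole numbers within 0.02 came out in every library for 16503 rows (95.9%), for 686 more at a length found by search (within 0.003), and for 28 at no length. Of recovered values from 1 to 12 reads, 71.0% were even, so reads are not independent molecules and counting errors are lower bounds.

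Knockout was compared with Control by limma 3.58.1 in R 4.3.3 on log2(TPM + 1), with trend and robust settings, two-sided, over 13034 rows of mean TPM at least 1. Fold changes on this scale understate those of low genes. The fit and the read recovery were run on simulated counts with known gene lengths and no batch. That run checked the code, and not how well either method suits these data. Alternatives were a pseudocount of 0.1, no filter, 2 scalings, limma-voom on recovered reads, a replicate block, leaving out each library, and leaving out the 28 rows, the last chosen after seeing the data. Motif searches covered both strands; the half-site and the AU-rich motifs were added after seeing the data. The genes and lists were chosen with earlier results of these data known. From each list the named genes were the called ones whose groups did not overlap, up to 3 a direction by size, and others, cell type markers among them, were named after their values were seen.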

Additional observations from a re-analysis of the deposited data

How the results depend on the processing

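Of the 10 genes, Egr1, Egr2, Egr3, Klf10 and Ier5 kept their direction and their side of the threshold in all 13 alternatives. The count of the 10 called lower was 2 to 4, and that called higher was 1 in each. Log2 fold changes of Ier2 and Nr4a1, neither of them called, changed sign with single libraries left out: Ier2 stood at 0.0326 without knockout replicate 3, 0.0082 without Control replicate 2 and 0.032 without Control replicate 3, and Nr4a1 at -0.0897 without knockout replicate 1 and -0.0013 without Control replicate 2. Over the 6 such fits Ier2 ran from -0.108 to 0.0326 and Nr4a1 from -0.0897 to 0.302. With 1 library left out in turn, 1312 to 2094 of all tested rows were called higher and 666 to 1222 lower, and 5 to 9 of the related genes were called higher and 11 to 16 lower. Fewer libraries enter those fits. The lowest counts over all rows came without Control replicate 3.

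Same-numbered libraries showed little shared deviation (correlations of 0.134, -0.077 and 0.031 across 13034 rows). This gives no sign of pairing by replicate number, but weak correlations cannot show that such libraries were handled apart. A replicate block gave 2331 rows higher and 1380 lower, 1 and 3 of the 10 genes, and 11 and 18 of the related genes, and it left the calls of the 10 unchanged. Limma-voom on recovered reads called 2298 rows higher and 1777 lower. At 112 to 278 reads a library, depth limits Egr2, Egr3 and Klf2 most.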

Other observations

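Family members under the filter of a mean of 1 TPM were left untested. Nr4a3 (Nor1) had 0.802, 0.681 and 0.308 TPM in knockout replicates 1 to 3, against 1.03, 0.708 and 0.907 TPM in Control replicates 1 to 3. Its groups overlap. Its mean was lower in knockout cells, while the means of Nr4a1 and Nr4a2 were higher, and that difference in direction was not tested. Fosb had 1.23, 0.694 and 0.819 TPM in knockout replicates 1 to 3, against 0.453, 0.519 and 0.389 TPM in Control replicates 1 to 3, and every knockout library was above every Control library. Ier5l, Klf1 and Klf12 averaged 0.505, 0.303 and 0.155 TPM in knockout libraries and 0.430, 0.658 and 0.233 TPM in Control libraries.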
